A study of Mus musculus with 31 samples.

Results

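RNA from Panc02 cells labelled Cxcl5-/- was compared between 3D and 2D culture, with 3 libraries in each, taken by their labels from a table of gene counts of 12 libraries. These 6 libraries are part of 31 in the whole series. Panc02 is a mouse pancreatic cancer cell line, and the knockout was made with a single guide RNA against Cxcl5 in a lentiviral vector that carries Cas9 and puromycin resistance. The methods describe a puromycin-selected population and name no clone. In 2D the cells grew as an adherent layer in culture medium. In 3D they were first gathered into spheroids in plates to which cells do not attach and were then embedded in Matrigel, a basement membrane extract. No drug or conditioned medium was added in either culture. The matched WT libraries, 3 in 2D and 3 in 3D, were in the same fit and are used here only to show where the libraries labelled Cxcl5-/- differed from them. Matrigel and the spheroid form both differ between 2D and 3D, the time in 2D is not given in the sources used here, and their parts cannot be told apart.

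A spheroid has an outer layer of cells in contact with medium and matrix and an inner mass that oxygen and nutrients reach by diffusion. Low oxygen stabilises HIF1A, a transcription factor that turns on genes for glucose uptake, glycolysis and blood vessel growth. Cells in spheroids commonly divide more slowly than cells on plastic, and they meet matrix on all sides. CXCL5 is a secreted chemokine that binds the receptor CXCR2 and is best known for drawing neutrophils.

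The 2D libraries held 61150864 to 67690173 counts and the 3D libraries 47133928 to 62626490, so that counting error was small for all but the weakest genes. Levels are given as CPM, counts scaled to a common library total that was adjusted by the trimmed mean of M values (TMM), always in the order of replicates 1, 2 and 3. They serve to compare libraries for the same gene and not one gene with another. A count was found for 23655 to 24129 genes in 2D and for 27225 to 27639 in 3D. The correlation of log2 CPM was 0.982 to 0.984 among the 2D libraries, 0.974 to 0.979 among the 3D libraries and 0.920 to 0.939 between them, and no pair of libraries held the same values. In 3D replicate 1 the 10 highest genes took 26.9% of all counts, against 17.8% and 18.7% in the other 3D libraries. Rn7s1, a 7SL RNA gene of the signal recognition particle, was at 71900, 33920 and 39890 CPM in 3D, and Rpph1, the RNA of RNase P, at 23770, 9480 and 11920 CPM. Results that rest on that library are given with and without it.

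The transcript of the targeted gene was present in all 6 libraries. Cxcl5 (chr5:90759360-90761624 on GRCm38, plus strand) stood at 37.4, 32.7 and 32.8 CPM in 2D and 65.5, 40.9 and 45.5 CPM in 3D (a log2 fold change of 0.56 with SE 0.14, adjusted p = 0.00393). All 3D libraries lay above all 2D libraries, with the highest value in 3D replicate 1, and without that library the log2 fold change was 0.31. In WT cells the same transcript stood at 45.6, 47.3 and 49.1 CPM in 2D and 28.5, 24.5 and 28.04 CPM in 3D, so that the 3D libraries labelled Cxcl5-/- held more of it than the 3D WT libraries. In the series' other table with 3D cells of these genotypes the order was the opposite, with 36.6 and 40.2 CPM in cells labelled Cxcl5-/- and 64.2 and 67.7 CPM in WT. Gene counts do not show an edited coding sequence, so the genotype is given throughout as the label states it. Cxcr2, the receptor of CXCL5, had 0 counts in all 6 libraries.

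The cells carried some epithelial markers and lacked others. Of 11 ductal markers 8 were tested, Krt8 and Krt18 were plainly present, and Epcam and Cdh1 were at 0. Endothelial, acinar and islet markers summed to under 2 CPM in every library. Of 13 macrophage markers, Itgam, Adgre1, Tyrobp, Laptm5 and Fcgr1 were at 0, and the list summed to 48.7 to 49.4 CPM in 2D and 44.4 to 65.1 CPM in 3D. Of the 7 tested, 4 were higher in 3D (Lyz2, Cd68, C1qb and Ptprc) and 1 was lower. The lower member, Cd14, made up most of the sum, at 40.85 to 42.75 CPM in 2D and 28.69 to 39.35 CPM in 3D. The 11 fibroblast markers summed to 646 to 677 CPM in 2D and 1210 to 1320 CPM in 3D, with Fap and Pdpn at 0 in all 6 libraries. Dcn and Lum, which encode proteoglycans of fibroblasts and were named after their values were seen, had 0 counts in 2D and 1.60 to 4.13 and 2.55 to 3.30 CPM in 3D. The part of such markers in the results was not tested.

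Across 21367 genes tested, 57% differed between 3D and 2D at an adjusted p under 0.05 (edgeR quasi-likelihood test, Benjamini-Hochberg). Of these, 6139 were higher in 3D (28.7% of genes tested) and 6032 were lower (28.2%). Over all genes the median log2 fold change stood at 0.11. A change of over 1 on the log2 scale was reached by 3995 of the higher and 2087 of the lower genes. The 3 libraries of one culture did not overlap the 3 of the other for 64.8% of genes. Without 3D replicate 1 the counts were 5907 higher and 6235 lower. The methods speak of biological replicates for the experiments in general and do not say how the sequenced libraries of a group were made, so p-values measure the spread between these libraries, which may be partly technical. In bulk RNA, fewer cells of a kind and less RNA of a gene per cell cannot be told apart.

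The direction of the calls varied with the level of the gene. Among genes with a mean under 1 CPM, 26.4% were higher and 4.94% lower in 3D, and between 1 and 10 CPM 41.5% were higher and 20.9% lower. Among genes with 100 CPM or more the order was turned, with 20.7% higher and 58.6% lower. These levels are means over the same 6 libraries, and a weak gene could pass the count filter through the libraries of a single group. Such a gene tends to be called in the direction of that group. The part of this selection in the tilt of weak genes was not tested. Olfactory and vomeronasal receptor genes, which a pancreatic line is not known to use, summed to 14.1 to 17.5 CPM in 2D and 42.6 to 44.4 CPM in 3D. With only the 17189 genes whose count stood clear of that background in every library, 4819 were higher and 5835 lower, a restriction chosen after the data were seen. A gene without counts in a library cannot pass it, however high it stands in the others. The restriction therefore drops the 679 tested genes absent from every 2D library and the 107 absent from every 3D library. Part of the loss of higher calls was thus fixed in advance. The same holds for the lists with members absent in 2D, wherever members clear of background are counted. Among the 13622 protein-coding genes 4074 were higher and 4909 lower. The part of background reads in the calls of weak genes was not tested.

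**Figure D1:**
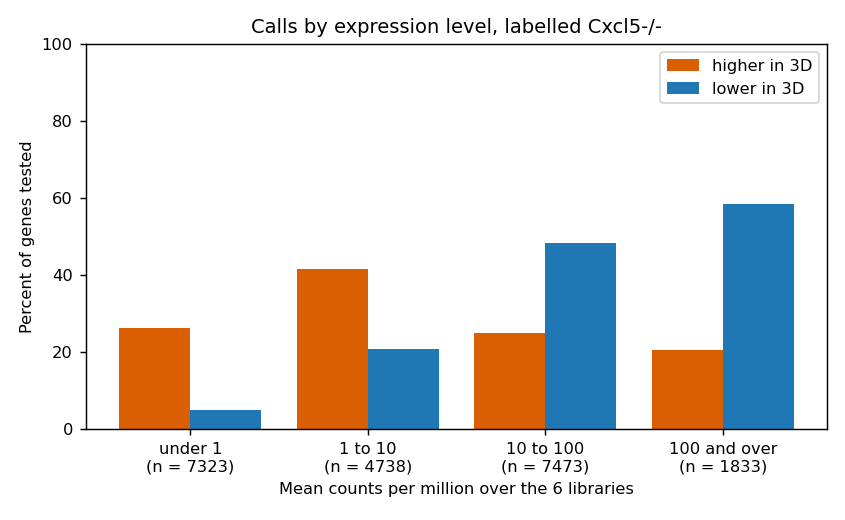
Percent of tested genes called higher (orange bars) or lower (blue bars) in 3D than in 2D libraries labelled Cxcl5-/- at an adjusted p under 0.05, by mean CPM over the 6 libraries, with the number of genes tested under each pair of bars. Higher calls outnumber lower calls under 10 CPM, and lower calls reach 58.6% at 100 CPM and over.

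Genes were grouped into 52 lists by role. The lists with the largest share of higher members were interferon-stimulated genes, MHC class I presentation, clustered protocadherins and hypoxia targets. Those with the largest share of lower members were DNA replication, aminoacyl-tRNA synthetases, cytosolic ribosomal proteins, mitosis and ribosome biogenesis. Each share is to be read against the 28.7% higher and 28.2% lower among all genes tested.

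**Figure D2:**
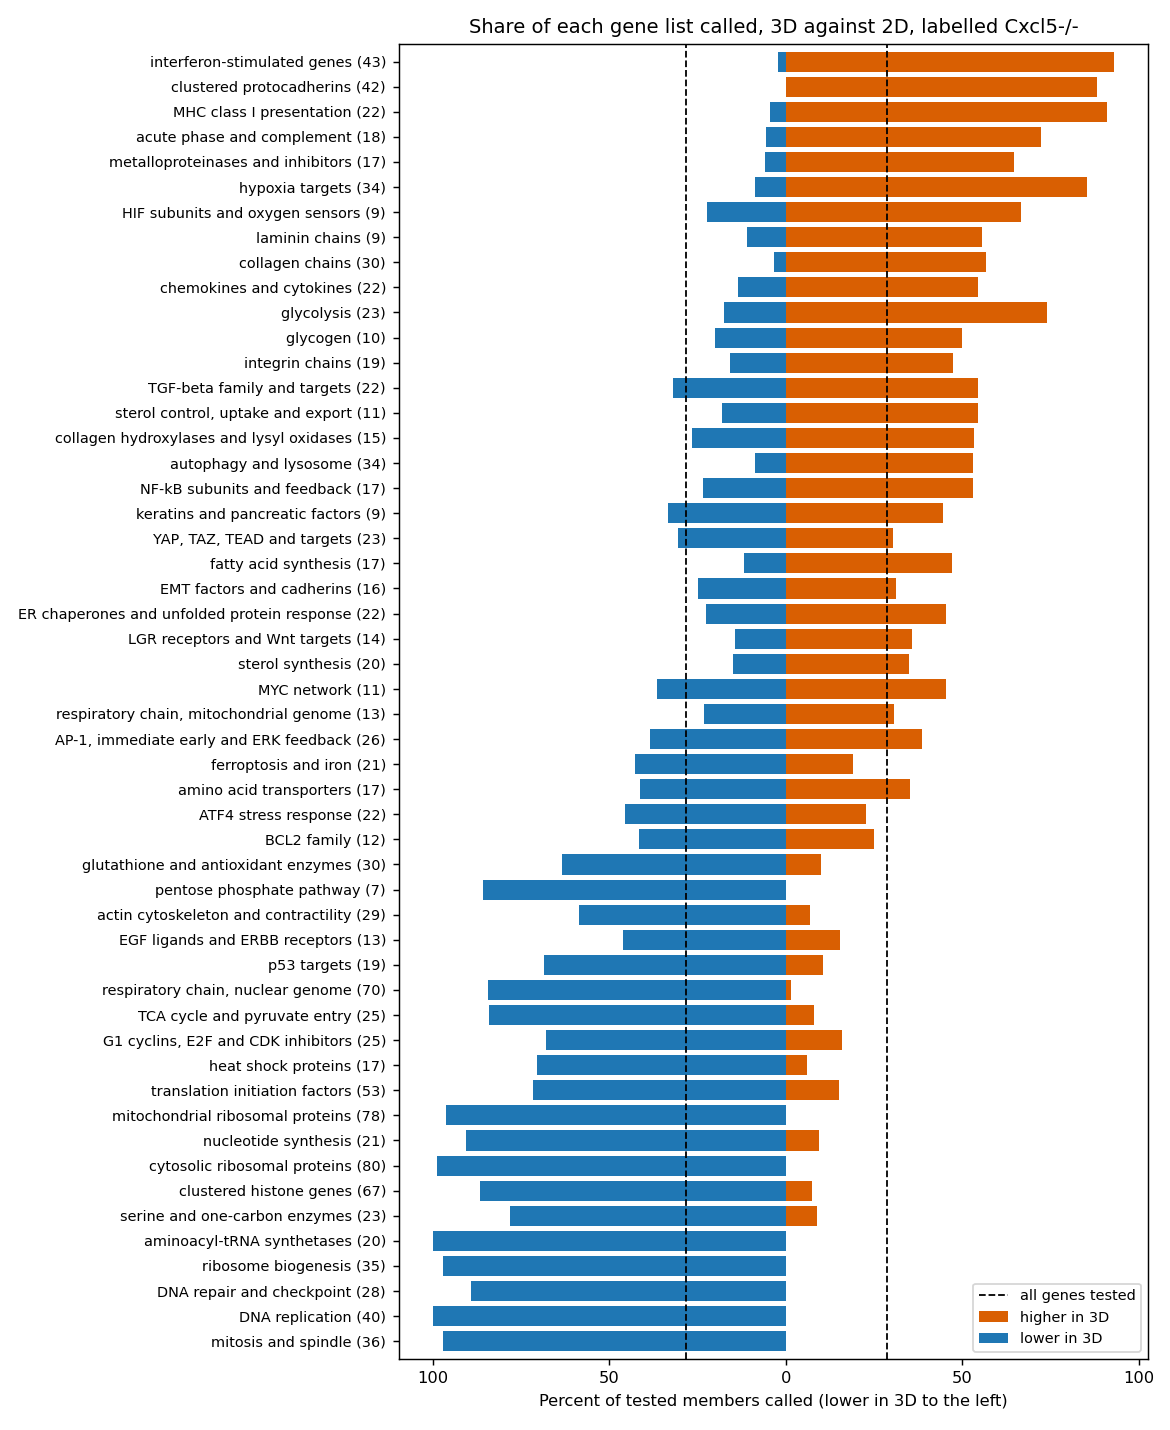
Percent of the tested members of each list called higher (orange, to the right) or lower (blue, to the left) in 3D than in 2D libraries labelled Cxcl5-/-, ordered by median log2 fold change, with the number tested in brackets and dashed lines at the shares among all genes tested (28.7% and 28.2%). Interferon-stimulated genes stand at one end with 40 of 43 higher, and mitosis and DNA replication genes at the other with 35 of 36 and 40 of 40 lower.

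Genes that interferon turns on were mostly higher in 3D. Of 43 members, all tested, 40 were higher and 1 lower (2 without 3D replicate 1), with a median log2 fold change of 3.94. Oas2, which makes the 2-5A signal that activates RNase L, had 0 counts in every 2D library and 14.8, 16.3 and 12.2 CPM in 3D, at least 312-fold higher against a floor of 3 counts per library. Zbp1, a sensor of Z-form nucleic acid, stood at 0.118, 0.338 and 0.123 CPM in 2D and 25.3, 23.6 and 22.4 CPM in 3D (a log2 fold change of 6.95 with SE 0.27, adjusted p = 5.07e-10). Ifi44, an interferon-induced gene, was at 0.370, 0.370 and 0.123 CPM in 2D and 32.8, 25.8 and 22.6 CPM in 3D (a log2 fold change of 6.54 with SE 0.37, adjusted p = 7.93e-09). Oasl2, a relative of the OAS enzymes, was at 1.30, 0.708 and 0.354 CPM in 2D and 29.8, 35.1 and 28.5 CPM in 3D (a log2 fold change of 5.29 with SE 0.31, adjusted p = 9.93e-09). For these 4 genes every 3D library lay far above every 2D library. Mx2, of the interferon-induced GTPase family, had 0, 0 and 0.0462 CPM in 2D and 8.87, 6.47 and 4.14 CPM in 3D. The annotation lists Mx2 as a polymorphic pseudogene. The members that did not follow were Ifit2, which was lower (log2 fold change −0.43, SE 0.10), and Ifitm1 and Irf1, whose differences did not pass the test (−0.07, SE 0.18, and −0.11, SE 0.10). Among the 36 members whose counts stood clear of the background, 33 were higher and 1 lower, with a median of 3.46.

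Stretches of 80 bases from in front of the RefSeq start are shown for Isg15, a ubiquitin-like modifier, and Ifit1, an RNA-binding antiviral protein, both named after their values were seen and chosen because they hold the letters of an interferon response element. Ifi44, Oasl2 and the MHC class I genes H2-K1, H2-Q4 and Tap1 were searched too and held no match. Isg15 stood at 0.637, 1.22 and 0.755 CPM in 2D and 21.9, 19.4 and 16.4 CPM in 3D (log2 fold change 4.47, SE 0.24). Ifit1 was at 4.36, 4.79 and 3.45 CPM in 2D and 173, 122 and 89.7 CPM in 3D (log2 fold change 4.93, SE 0.21). The capitals mark GAAA, any 2 bases and GAAA again, or the reverse complement, which overlap in Isg15. The sequences are RefSeq's on GRCm38.p6, Isg15 from the minus strand at chr4:156200840-156200919 and Ifit1 from the plus strand at chr19:34640769-34640848.
Isg15: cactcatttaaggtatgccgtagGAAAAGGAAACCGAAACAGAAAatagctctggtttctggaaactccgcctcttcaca
Ifit1: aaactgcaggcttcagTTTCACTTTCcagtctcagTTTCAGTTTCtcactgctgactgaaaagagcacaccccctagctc
On either strand within 250 bases before the start, these letters were in 15 of 38 promoters of 31 matched interferon-stimulated genes (39.5%) and in 2.97% of all 32817 promoters. The motif was chosen after the data were seen, and a match is a description of letters and not a site shown to act.

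Antigen presentation by MHC class I, which displays peptides to T cells and is itself under interferon control, was also higher in 3D. Of 22 members 20 were higher and 1 lower, with a median log2 fold change of 2.37. H2-K1, a classical heavy chain, stood at 79.2, 77.2 and 69.5 CPM in 2D and 1038, 697 and 876 CPM in 3D (a log2 fold change of 3.53 with SE 0.15, adjusted p = 7.33e-10). H2-Q4, a non-classical heavy chain, stood at 2.71, 1.40 and 2.25 CPM in 2D and 76.7, 78.3 and 82.1 CPM in 3D (a log2 fold change of 5.21 with SE 0.18, adjusted p = 3.13e-10), and reads of such similar genes may be split between them. Tap1, a subunit of the peptide transporter, was at 6.55, 6.14 and 5.72 CPM in 2D and 47.4, 46.6 and 47.8 CPM in 3D (a log2 fold change of 2.94 with SE 0.09, adjusted p = 1.52e-10). Its partner Tap2 was at 1.26, 1.14 and 1.14 CPM in 2D and 14.6, 13.1 and 15.98 CPM in 3D (a log2 fold change of 3.62 with SE 0.16, adjusted p = 1.18e-09). In each of these genes the groups were far apart. Calr, a chaperone that the list shares with the ER, was lower (−0.36, SE 0.12), and Psme2, a proteasome activator, did not pass the test (−0.12, SE 0.11). The letters of the interferon response element were in 3 of 21 promoters of this list (14.3%).

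Complement and acute phase genes, whose products are secreted mostly by liver but also by stromal and tumour cells, were higher in 13 of 18 tested members and lower in 1, with a median log2 fold change of 1.61. C3, the central complement protein, stood at 3.33, 5.003 and 4.54 CPM in 2D and 162, 204 and 196 CPM in 3D (a log2 fold change of 5.45 with SE 0.16, adjusted p = 1.14e-10). C4b, a complement protein that acts before C3, was at 0.163, 0.129 and 0 CPM in 2D and 122, 118 and 115 CPM in 3D. Hp, or haptoglobin, which binds free haemoglobin, was at 0.445, 0.354 and 0.200 CPM in 2D and 34.8, 23.8 and 24.5 CPM in 3D (a log2 fold change of 6.37 with SE 0.36, adjusted p = 7.26e-09). No 2D library reached a 3D library in any of the 3. Slpi, a protease inhibitor, was the lower member. Among 11 members clear of background 8 were higher (median 1.39).

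Chemokines, cytokines and their receptors were mixed, with 12 higher and 3 lower of 22 (median 0.76). Ccl9, a monocyte-attracting chemokine, stood at 7.48, 8.30 and 6.39 CPM in 2D and 30.5, 21.03 and 26.03 CPM in 3D (a log2 fold change of 1.81 with SE 0.13, adjusted p = 7.76e-08). Il34, a ligand of the CSF1 receptor, had a log2 fold change of 1.13 (SE 0.10) and Ackr3, a scavenging receptor of CXCL12, one of 0.79 (SE 0.12). Ccl2, the main chemokine for monocytes, was lower in 3D, at 85.1, 67.1 and 82.7 CPM in 2D and 59.4, 29.5 and 32.9 CPM in 3D (a log2 fold change of −0.95 with SE 0.21, adjusted p = 0.00165), with 3D replicate 1 the highest of its group. NF-kB subunits and feedback genes gave 9 higher and 4 lower of 17 (median 0.35). Among them Nfkbiz, Nfkbie and Relb, all regulators or subunits of NF-kB, were higher by 0.75, 0.67 and 0.62, and Traf2, an adaptor of TNF receptors, was lower (−0.79, SE 0.12).

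Targets of hypoxia were higher in 3D while the Hif1a transcript itself was lower. Of 34 tested targets 29 were higher and 3 lower, with a median log2 fold change of 1.46, or 1.40 with genes absent in 2D set at their bound. Hif1a stood at 234, 218 and 221 CPM in 2D and 176, 140 and 163 CPM in 3D (a log2 fold change of −0.49 with SE 0.10, adjusted p = 6.43e-04), with every 3D library below every 2D library. Car9, a carbonic anhydrase that exports acid, was at 0.474, 0.611 and 0.339 CPM in 2D and 10.02, 9.60 and 12.8 CPM in 3D (a log2 fold change of 4.50 with SE 0.23, adjusted p = 3.62e-09). Ankrd37, a small ankyrin repeat protein, was at 2.65, 2.27 and 2.22 CPM in 2D and 38.8, 29.9 and 30.9 CPM in 3D (a log2 fold change of 3.80 with SE 0.12, adjusted p = 1.52e-10). Ndrg1, a stress-induced gene, rose from 78.7, 74.6 and 74.3 CPM to 731, 799.7 and 800.4 CPM (a log2 fold change of 3.36 with SE 0.09, adjusted p = 6.47e-11). These 3 targets differed between 3D and 2D by many times the spread among replicates. The lower members were Pdgfb (−2.02, SE 0.15), a growth factor chain, Plaur (−1.61, SE 0.15), the urokinase receptor, and Anxa2 (−0.93, SE 0.08), a membrane-binding annexin. Stc2 and Plin2 did not pass the test.

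The enzymes that mark HIF for destruction are themselves hypoxia-responsive. Of 9 tested HIF subunits and sensors 6 were higher and 2 lower. Egln3, a hydroxylase that senses oxygen and modifies HIF, stood at 58.1, 60.6 and 57.4 CPM in 2D and 160.2, 206 and 230.4 CPM in 3D (a log2 fold change of 1.76 with SE 0.12, adjusted p = 3.47e-08). Its relative Egln1 was at 87.5, 75.9 and 74.5 CPM in 2D and 165, 214 and 223 CPM in 3D (a log2 fold change of 1.34 with SE 0.12, adjusted p = 6.29e-07). Epas1, the HIF2A subunit, was at 1.78, 2.16 and 3.004 CPM in 2D and 5.95, 12.1 and 10.2 CPM in 3D (a log2 fold change of 2.02 with SE 0.26, adjusted p = 1.69e-05), and Arnt, the shared partner subunit, had a log2 fold change of 0.97 (SE 0.14). In all 4 the 3D libraries were the higher ones.

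Glycolysis was higher in most of its steps: 17 of 23 tested members were higher and 4 lower in 3D (median log2 fold change 0.75). Slc2a1, the glucose transporter GLUT1, stood at 20.3, 19.7 and 20.4 CPM in 2D and 94.05, 88.5 and 97.7 CPM in 3D (a log2 fold change of 2.21 with SE 0.11, adjusted p = 1.95e-09). Aldoc, an aldolase, was at 2.86, 1.77 and 2.67 CPM in 2D and 50.1, 40.3 and 43.1 CPM in 3D (a log2 fold change of 4.19 with SE 0.19, adjusted p = 1.07e-09). Hk2, which traps glucose in the cell as its phosphate, and Pfkl, a phosphofructokinase, had log2 fold changes of 1.67 (SE 0.09) and 1.61 (SE 0.11). Aldoa, the main aldolase, was at 789, 704 and 714 CPM in 2D and 1560, 1272 and 1412 CPM in 3D (a log2 fold change of 0.94 with SE 0.12, adjusted p = 1.10e-05). Pgk1, a kinase that yields ATP, was at 927, 820.1 and 839.5 CPM in 2D and 1524, 1285 and 1543 CPM in 3D (a log2 fold change of 0.75 with SE 0.09, adjusted p = 6.82e-06). Ldha, which turns pyruvate into lactate, was at 951, 897 and 904 CPM in 2D and 1218, 1006 and 1314 CPM in 3D (a log2 fold change of 0.36 with SE 0.10, adjusted p = 0.00560). The 3 latter genes were higher in every 3D library, though Ldha by a small margin, and all 3 have processed pseudogenes with which reads can be shared. Lower members were Pfkfb4, Pfkfb1, Slc16a1 and Gapdh, with log2 fold changes between −0.99 and −0.31, and Gapdh has many near-identical pseudogenes with which reads may be shared, which was not tested. Pkm and Pfkm did not pass the test. Glycogen genes gave 5 higher and 2 lower of 10 (median 0.61), and Gys1, the synthase, was at 41.9, 42.5 and 42.7 CPM in 2D and 99.6, 130.5 and 137 CPM in 3D (a log2 fold change of 1.53 with SE 0.12, adjusted p = 1.38e-07). The pentose phosphate pathway, which branches from glycolysis to make NADPH and ribose, went the other way, with 6 of 7 members lower and 0 higher. Taldo1 (−0.89, SE 0.12) and G6pdx (−0.54, SE 0.08) were among them.

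Promoter stretches of Pgk1, Ldha and P4ha2 (a collagen prolyl hydroxylase) are shown as hypoxia targets that were higher in 3D and whose stretch held the letters outside annotated exons. Aldoc and Pfkl, also higher in 3D, held no match. Ldha is shown for a start with matches, while another of its starts held none. Aldoa too had a start with a match and another without. P4ha2 stood at 1.23, 0.676 and 1.12 CPM in 2D and 11.3, 10.9 and 13.1 CPM in 3D (a log2 fold change of 3.54 with SE 0.18, adjusted p = 3.92e-09). Capitals mark ACGTG, the core letters to which HIF binds, or its reverse complement, which overlap once in Ldha. The sequences are RefSeq's on GRCm38.p6, all from plus strands, at chrX:106186931-106187010, chr7:46845724-46845803 and chr11:54100808-54100887.
Pgk1: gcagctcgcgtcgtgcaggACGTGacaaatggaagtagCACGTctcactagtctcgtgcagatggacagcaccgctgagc
Ldha: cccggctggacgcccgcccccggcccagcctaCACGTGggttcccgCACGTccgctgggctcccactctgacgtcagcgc
P4ha2: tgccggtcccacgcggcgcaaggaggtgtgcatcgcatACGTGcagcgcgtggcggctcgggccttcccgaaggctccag
The letters were in 14 of 32 promoters of 24 hypoxia targets (43.8%) and 16 of 40 of 23 glycolysis genes, since a gene can have several promoters, against 16.6% of all promoters. They were also in 33.3% of MHC class I, 31.2% of mitosis and 28.2% of cytosolic ribosomal protein promoters, and in 5.26% of those of interferon-stimulated genes. ACGTG lies within the longer E-box CACGTG, which 6.02% of all promoters hold, so the same letters can count for both.

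More lipid genes were higher than lower in 3D. In sterol synthesis 7 of 20 members were higher and 3 lower, and the median log2 fold change of 0.03 turned to −0.04 without 3D replicate 1. Tm7sf2, a reductase of late sterol synthesis, stood at 7.57, 9.23 and 8.83 CPM in 2D and 40.5, 30.1 and 35.6 CPM in 3D (a log2 fold change of 2.05 with SE 0.14, adjusted p = 3.16e-08). Sqle, the squalene epoxidase, was at 194, 195 and 184 CPM in 2D and 285, 291 and 328 CPM in 3D (a log2 fold change of 0.66 with SE 0.08, adjusted p = 1.67e-05). Msmo1, a demethylating oxidase of the pathway, was at 392, 366 and 368 CPM in 2D and 415, 319.9 and 354 CPM in 3D (a log2 fold change of −0.05 with SE 0.10, adjusted p = 0.692). Dhcr7, which makes the last step to cholesterol, was at 18.2, 21.1 and 20.3 CPM in 2D and 14.2, 24.7 and 22.6 CPM in 3D (a log2 fold change of 0.04 with SE 0.16, adjusted p = 0.828). The groups overlapped for Msmo1 and Dhcr7 and did not for Sqle. Acat2, which starts the pathway from acetyl-CoA, was lower (−0.56, SE 0.10). The genes for sterol control, uptake and export gave 6 higher and 2 lower of 11 (median 0.44), with Srebf2, the master factor of sterol synthesis, higher (0.81, SE 0.18). In fatty acid synthesis there were 8 higher and 2 lower of 17 (median 0.11). Acacb, the mitochondrial acetyl-CoA carboxylase, stood at 0.874, 0.853 and 1.17 CPM in 2D and 13.5, 18.3 and 13.6 CPM in 3D (a log2 fold change of 3.97 with SE 0.26, adjusted p = 3.10e-08). Acss2, which makes acetyl-CoA from acetate, and Scd1, the desaturase, had log2 fold changes of 1.47 (SE 0.10) and 1.32 (SE 0.08).

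Genes of cell division were lower in 3D. All 40 members of DNA replication were lower, with a median log2 fold change of −1.65. Of 36 members of mitosis and spindle 35 were lower and 0 higher, with a median of −1.95. Of 28 repair and checkpoint genes 25 were lower and 0 higher (median −1.48). Mcm5, a subunit of the replicative helicase, fell from 368, 358 and 353 CPM to 76.1, 69.9 and 86.4 CPM (a log2 fold change of −2.21 with SE 0.10, adjusted p = 1.45e-09). Aurka, a kinase of the spindle poles, stood at 152, 144 and 124 CPM in 2D and 25.3, 24.4 and 26.2 CPM in 3D (a log2 fold change of −2.47 with SE 0.10, adjusted p = 6.84e-10). Ccnb1, or cyclin B1, was at 343, 306 and 312 CPM in 2D and 72.5, 57.4 and 64.1 CPM in 3D (a log2 fold change of −2.31 with SE 0.10, adjusted p = 8.64e-10). Its kinase Cdk1 was at 242, 229 and 219 CPM in 2D and 62.3, 42.8 and 51.3 CPM in 3D (a log2 fold change of −2.14 with SE 0.12, adjusted p = 6.01e-09). For these 4 genes every 3D library lay below every 2D library. Pttg1, or securin, did not pass the test.

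Other genes that the study lists for replication and repair were lower as well. The log2 fold changes were −1.99 for Fen1, a flap nuclease, −1.80 for Mcm7, −2.07 for Gins1, −2.07 for the licensing factor Cdc6 and −1.79 for the sliding clamp Pcna, with SEs of 0.09 to 0.14. Traip, a ubiquitin ligase at stalled forks, was at 29.6, 26.1 and 27.7 CPM in 2D and 6.86, 5.998 and 8.05 CPM in 3D (a log2 fold change of −1.995 with SE 0.11, adjusted p = 6.33e-09). Rnf8, a ligase of the damage response, was at 17.5, 23.8 and 20.5 CPM in 2D and 10.8, 12.8 and 10.99 CPM in 3D (a log2 fold change of −0.83 with SE 0.21, adjusted p = 0.00347). Cgas, the DNA sensor upstream of interferon, was lower too, at 14.2, 14.7 and 14.00 CPM in 2D and 3.53, 3.92 and 3.86 CPM in 3D (a log2 fold change of −1.92 with SE 0.13, adjusted p = 3.39e-08). The study chose these names on libraries of this series, so they are no independent evidence of a direction.

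Clustered histone genes, whose transcripts accumulate in S phase, were lower in 58 of 67 members and higher in 5, with a median of −1.15. Without 3D replicate 1 the higher members were 2 and the median −1.59, and 2 were also the higher ones among the 62 members clear of background. They summed to 13800 to 15500 CPM in 2D and 4570 to 9500 CPM in 3D. H1f1, a linker histone, stood at 477, 462 and 423 CPM in 2D and 192, 99.6 and 121 CPM in 3D (a log2 fold change of −1.72 with SE 0.18, adjusted p = 2.33e-06), with 3D replicate 1 the highest of its group. Several members are near-identical copies among which reads can be split. The G1 cyclins, E2F factors and CDK inhibitors gave 4 higher and 17 lower of 25 (median −0.78). Ccnd1, or cyclin D1, was at 433, 442 and 405 CPM in 2D and 164, 162 and 176 CPM in 3D (a log2 fold change of −1.35 with SE 0.10, adjusted p = 1.10e-07), and Ccne1 and Ccne2, the E cyclins, had log2 fold changes of −1.37 (SE 0.09) and −1.73 (SE 0.11). Cdkn1a, the inhibitor p21, was at 12.1, 11.9 and 10.8 CPM in 2D and 1.06, 4.99 and 5.72 CPM in 3D (a log2 fold change of −1.56 with SE 0.37, adjusted p = 0.00256), and 3D replicate 1 was well below the other 3D libraries.

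Promoter stretches of Mcm5 and Uhrf1 (a factor that maintains DNA methylation) are shown because they hold letters to which E2F factors bind, here TTTCGCGC and in Mcm5 also the overlapping reverse complement of TTTGGCGC, marked by capitals. Mcm10, Dna2, Pcna, Fen1, Rrm1, Chek1, Rad51ap1 and Tyms held no match. Both are RefSeq's on GRCm38.p6 from plus strands, at chr8:75109324-75109403 and, for one of the starts of Uhrf1, at chr17:56304092-56304171.
Mcm5: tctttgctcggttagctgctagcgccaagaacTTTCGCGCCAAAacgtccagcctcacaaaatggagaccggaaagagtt
Uhrf1: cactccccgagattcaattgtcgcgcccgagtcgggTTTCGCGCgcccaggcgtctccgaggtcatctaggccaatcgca
Uhrf1 itself stood at 292, 292 and 234 CPM in 2D and 62.2, 71.1 and 70.00 CPM in 3D (a log2 fold change of −2.01 with SE 0.12, adjusted p = 1.14e-08). TTTCGCGC, TTTGGCGC, TTTCCCGC or TTTGCCGC, on either strand, were in 8 of 37 promoters of replication genes (21.6%) and in 1.86% of all promoters. TTTGAA, the letters of the CHR element of mitotic genes, was in 12 of 32 promoters of mitosis genes (37.5%) and 26 of 62 of histone genes (41.9%), against 16.0% of all. Ccnb1, Aurka, Hmmr, Ndc80 and Hells were searched for it and held no match, while Cdk1 held 2. CCAAT, the box bound by NF-Y, was in 24 of 32 promoters of mitosis genes (75.0%) and 51 of 62 of histone genes (82.3%), against 33.8% of all. It was as common in lists that were not lower, with 71.4% of MHC class I and 77.8% of sterol synthesis promoters. In ribosome biogenesis, a lower list, it was in 24.2%.

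Myc, a transcription factor that drives growth and ribosome production, stood at 14.5, 16.5 and 12.5 CPM in 2D and 9.12, 11.4 and 10.7 CPM in 3D (a log2 fold change of −0.48 with SE 0.12, adjusted p = 0.00319), and the libraries did not overlap. With library totals in place of TMM the log2 fold change was −0.32 and did not pass (adjusted p = 0.0836). Among 11 tested genes of the MYC network 5 were higher and 4 lower. Mxd4, a partner of MAX that opposes MYC, stood at 23.99, 23.2 and 26.6 CPM in 2D and 173, 156 and 174 CPM in 3D (a log2 fold change of 2.77 with SE 0.12, adjusted p = 6.84e-10), and the related repressors Mnt and Mxi1 had log2 fold changes of 1.47 (SE 0.23) and 1.36 (SE 0.10). Mxd3 was lower (−1.29, SE 0.15).

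The protein synthesis machinery was mostly lower in 3D. Ribosome biogenesis had 34 of 35 members lower and 0 higher (median −1.41), cytosolic ribosomal proteins 79 of 80 and 0 (median −1.04), and mitochondrial ribosomal proteins 75 of 78 and 0 (median −0.84). All 20 aminoacyl-tRNA synthetases were lower (median −1.18), as were 38 of 53 initiation factors, with 8 higher, or 5 without 3D replicate 1 and 5 of 47 clear of background. Nop2, a methyltransferase of ribosomal RNA, stood at 112, 100 and 100.1 CPM in 2D and 25.6, 26.4 and 26.7 CPM in 3D (a log2 fold change of −1.99 with SE 0.09, adjusted p = 1.28e-09). Dkc1, the pseudouridine synthase dyskerin, was at 145, 125 and 131 CPM in 2D and 32.5, 34.1 and 35.9 CPM in 3D (a log2 fold change of −1.97 with SE 0.09, adjusted p = 1.15e-09). Rps16, a small subunit protein, was at 339.8, 407 and 174 CPM in 2D and 60.1, 75.3 and 50.8 CPM in 3D (a log2 fold change of −2.31 with SE 0.25, adjusted p = 3.41e-06). The cytosolic ribosomal proteins summed to 54100 to 59800 CPM in 2D and 22100 to 34200 CPM in 3D, and their many pseudogenes can take reads from them. Tars, the threonine synthetase, was at 293, 281 and 260 CPM in 2D and 98.1, 81.2 and 95.6 CPM in 3D (a log2 fold change of −1.60 with SE 0.11, adjusted p = 3.54e-08). Eif4a1, the helicase of initiation, was at 1237, 1132 and 1077 CPM in 2D and 490.3, 407 and 446 CPM in 3D (a log2 fold change of −1.36 with SE 0.09, adjusted p = 1.97e-08). Mrpl12, of the large mitochondrial subunit, was at 74.6, 63.9 and 34.9 CPM in 2D and 9.48, 11.4 and 9.10 CPM in 3D, with 2D replicate 3 the lowest of its group. Rpl17, Ncl, Mrpl24, Mrps6 and Mrpl33 did not pass the test.

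**Figure D3:**
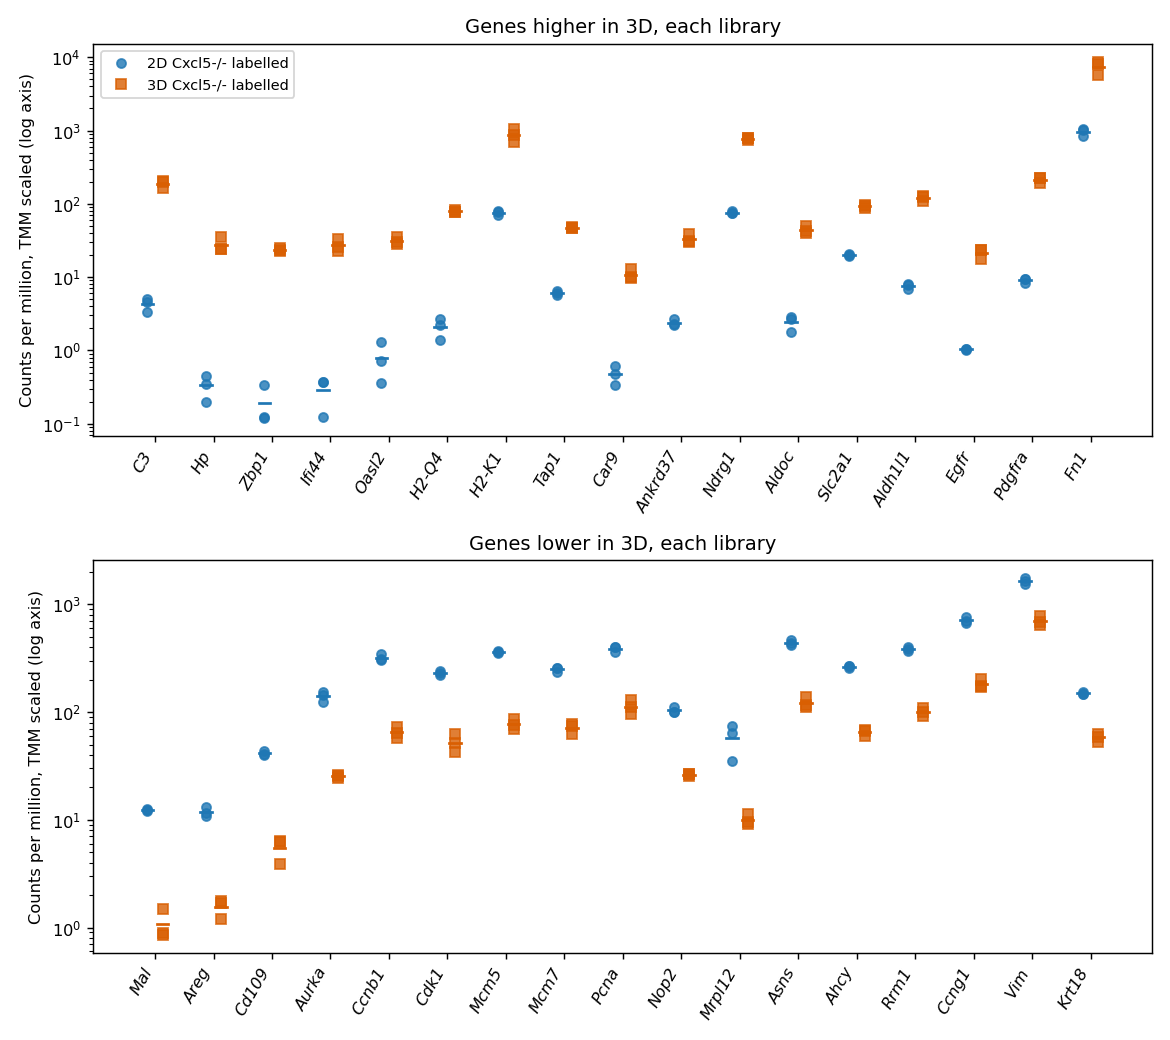
TMM-scaled CPM on a log axis in each 2D (blue circles) and 3D (orange squares) library labelled Cxcl5-/-, with a short line at the mean of 3 libraries, for genes higher in 3D (upper panel) and lower in 3D (lower panel). No 2D library overlaps a 3D library for any gene drawn, and the gap is widest for genes near 0 in 2D such as Zbp1 and Ifi44. The genes drawn all passed the test and many were picked for large changes, some with no overlap as a condition. Among all genes tested 64.8% do not overlap.

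Mitochondrial metabolism was mostly lower. Of 70 nuclear genes of the respiratory chain 59 were lower and 1 higher (median −0.64), and without 3D replicate 1 it was 68 lower and 1 higher. Atp5b, the catalytic subunit of ATP synthase, stood at 1422, 1357 and 1258 CPM in 2D and 626, 528 and 585 CPM in 3D (a log2 fold change of −1.22 with SE 0.10, adjusted p = 1.56e-07). Ndufv3, a subunit of complex I, was the higher member, at 33.4, 33.9 and 31.1 CPM in 2D and 86.6, 62.6 and 70.5 CPM in 3D (a log2 fold change of 1.16 with SE 0.12, adjusted p = 2.52e-06). The 13 genes of the mitochondrial genome itself gave 4 higher and 3 lower, with a median of −0.01 that became 0.12 with library totals. Without 3D replicate 1 they gave 4 higher and 6 lower, with a median of −0.24. mt-Nd4, a subunit of complex I, stood at 51.7, 57.9 and 68.1 CPM in 2D and 106, 152 and 155 CPM in 3D (a log2 fold change of 1.22 with SE 0.17, adjusted p = 3.43e-05). mt-Nd6, another subunit encoded on the other strand, was at 23.1, 21.3 and 25.9 CPM in 2D and 8.72, 10.9 and 14.4 CPM in 3D (a log2 fold change of −1.04 with SE 0.18, adjusted p = 2.67e-04). The first was higher and the second lower in every 3D library. mt-Nd5 had a log2 fold change of 0.65 (SE 0.19) and overlapping libraries. The genes of the TCA cycle and pyruvate entry gave 2 higher and 21 lower of 25 (median −0.75). Idh3a, of isocitrate dehydrogenase, was at 102, 96.7 and 79.4 CPM in 2D and 34.6, 34.7 and 33.5 CPM in 3D (a log2 fold change of −1.43 with SE 0.11, adjusted p = 1.51e-07). Pcx, the pyruvate carboxylase that refills the cycle, was higher, at 84.5, 76.4 and 86.1 CPM in 2D and 222, 193 and 212 CPM in 3D (a log2 fold change of 1.34 with SE 0.16, adjusted p = 6.52e-06).

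Pathways that build nucleotides and carry one-carbon units were lower as well. Of 23 serine and one-carbon enzymes 18 were lower and 2 higher (median −1.15), and of 21 nucleotide synthesis genes 19 were lower and 2 higher (median −0.996). Phgdh, the entry enzyme of serine synthesis, stood at 802, 766 and 719.8 CPM in 2D and 257, 182 and 228 CPM in 3D (a log2 fold change of −1.78 with SE 0.14, adjusted p = 1.20e-07). Tyms, which makes thymidylate, had a log2 fold change of −1.86 (SE 0.09), and Rrm1, of ribonucleotide reductase, one of −1.94 (SE 0.08). Ahcy, which clears S-adenosylhomocysteine, was at 268, 266 and 258 CPM in 2D and 68.9, 60.5 and 66.4 CPM in 3D (a log2 fold change of −2.02 with SE 0.09, adjusted p = 1.41e-09). Against the list, Aldh1l1, which oxidises formyl-tetrahydrofolate, rose from 8.06, 6.87 and 7.70 CPM to 124, 109 and 129 CPM (a log2 fold change of 4.0 with SE 0.13, adjusted p = 2.20e-10).

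Antioxidant genes were mostly lower, and iron genes were divided. Glutathione and antioxidant enzymes gave 3 higher and 19 lower of 30 (median −0.46). Txn1, or thioredoxin, stood at 584, 555 and 494 CPM in 2D and 214, 140 and 159.9 CPM in 3D (a log2 fold change of −1.67 with SE 0.13, adjusted p = 1.45e-07). Hmox1, the haem oxygenase, was at 24.2, 26.1 and 21.9 CPM in 2D and 64.4, 61.5 and 59.7 CPM in 3D (a log2 fold change of 1.36 with SE 0.09, adjusted p = 3.71e-08). Gclc, the first enzyme of glutathione synthesis, was at 73.4, 68.9 and 68.05 CPM in 2D and 37.6, 36.9 and 34.4 CPM in 3D (a log2 fold change of −0.95 with SE 0.07, adjusted p = 7.76e-08). Of these 3 genes Hmox1 was higher and the others lower in every 3D library. Ferroptosis and iron genes gave 4 higher and 9 lower of 21 (median −0.04), a median whose sign turned with library totals (0.12). Slc40a1, the iron exporter, was at 23.4, 23.3 and 26.2 CPM in 2D and 128, 138 and 128 CPM in 3D (a log2 fold change of 2.43 with SE 0.10, adjusted p = 6.84e-10). Tfrc, the transferrin receptor that imports iron, was at 659, 589 and 611 CPM in 2D and 308, 287 and 285 CPM in 3D (a log2 fold change of −1.08 with SE 0.08, adjusted p = 1.23e-07). The exporter and the importer thus moved in opposite directions. Amino acid transporters gave 6 higher and 7 lower of 17 (median −0.15), again with a median that changed sign with library totals (0.01). Slc43a2, which carries large neutral amino acids, and Slc7a1, which carries basic ones, had log2 fold changes of 2.79 (SE 0.20) and −0.87 (SE 0.14).

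Stress programmes did not move as 1 block. In the ATF4 list, which serves amino acid shortage, 5 of 22 were higher and 10 lower (median −0.20). Asns, the asparagine synthetase, stood at 472, 434 and 418 CPM in 2D and 137, 112 and 115 CPM in 3D (a log2 fold change of −1.86 with SE 0.09, adjusted p = 3.11e-09). Vegfa, the vessel growth factor that is also a hypoxia target, was at 44.5, 40.3 and 44.6 CPM in 2D and 194, 199.7 and 188 CPM in 3D (a log2 fold change of 2.17 with SE 0.11, adjusted p = 2.54e-09). Heat shock proteins were lower in 12 of 17 and higher in 1 (median −0.80), with the cytosolic chaperone Hsp90aa1 at 1110, 977 and 974 CPM in 2D and 366, 283 and 355 CPM in 3D (a log2 fold change of −1.61 with SE 0.13, adjusted p = 1.65e-07). The unfolded protein response gave 10 higher and 5 lower of 22 (median 0.06). Of its members Dnajb9, a co-chaperone, and Sel1l, of ER-associated degradation, had log2 fold changes of 1.15 (SE 0.11) and 0.82 (SE 0.08). Targets of p53 were lower in 13 of 19 and higher in 2 (median −0.62). Ccng1, or cyclin G1, stood at 760, 700.1 and 675 CPM in 2D and 201, 171 and 173 CPM in 3D (a log2 fold change of −1.97 with SE 0.09, adjusted p = 1.37e-09), and Sesn1, a sestrin, and Fas, a death receptor, were the higher ones (0.51, SE 0.12, and 0.88, SE 0.11).

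In the BCL2 family, which sets the threshold of cell death at mitochondria, the members that promote death were split. Bcl2l11, or BIM, stood at 8.12, 8.62 and 8.30 CPM in 2D and 36.8, 49.2 and 47.1 CPM in 3D (a log2 fold change of 2.41 with SE 0.13, adjusted p = 5.73e-09). Bmf, like BIM a death-promoting member that holds only the BH3 domain, was at 21.9, 23.5 and 23.4 CPM in 2D and 97.04, 103 and 109 CPM in 3D (a log2 fold change of 2.17 with SE 0.10, adjusted p = 1.40e-09). Bax, which forms the pore, was at 94.05, 91.2 and 87.7 CPM in 2D and 39.04, 29.6 and 35.3 CPM in 3D (a log2 fold change of −1.39 with SE 0.11, adjusted p = 1.51e-07). Bcl2l1, which encodes the protective BCL-XL, was at 75.04, 76.1 and 62.6 CPM in 2D and 29.8, 35.6 and 34.5 CPM in 3D (a log2 fold change of −1.10 with SE 0.10, adjusted p = 7.27e-07). The libraries of the 2 cultures did not overlap for any of the 4. The list had 3 higher and 5 lower of 12 (median −0.23). Autophagy and lysosome genes were higher in 18 of 34 and lower in 3 (median 0.35), and without 3D replicate 1 in 14 and 4. Ulk1, the kinase that starts autophagy, was at 5.76, 7.42 and 9.31 CPM in 2D and 19.9, 31.3 and 22.8 CPM in 3D (a log2 fold change of 1.72 with SE 0.20, adjusted p = 6.80e-06). Ctsa, a lysosomal protease, was at 63.1, 66.8 and 58.04 CPM in 2D and 206, 177 and 190.4 CPM in 3D (a log2 fold change of 1.61 with SE 0.12, adjusted p = 1.31e-07).

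Matrix genes were higher in many of their members. Collagen chains gave 17 higher and 1 lower of 30 (median 0.78), metalloproteinases and inhibitors 11 higher and 1 lower of 17 (median 1.57), laminin chains 5 higher and 1 lower of 9 (median 0.82), and collagen hydroxylases and lysyl oxidases 8 higher and 4 lower of 15 (median 0.39). With genes absent in 2D at their bound the median of the metalloproteinases was 1.09. Among members clear of background the higher ones were 10 of 16 collagen chains (median 0.58), 6 of 10 metalloproteinases and inhibitors (median 0.80) and 2 of 5 laminin chains (median 0.22). Fn1, or fibronectin, rose from 833, 1012 and 1052 CPM to 5698, 8655 and 8007 CPM (a log2 fold change of 2.95 with SE 0.17, adjusted p = 9.93e-09), with 3D replicate 1 the lowest of its group. Col3a1, of fibrillar collagen, was at 505, 461 and 487 CPM in 2D and 843, 759.9 and 872 CPM in 3D (a log2 fold change of 0.77 with SE 0.08, adjusted p = 2.62e-06). P4ha1 and Plod2, which hydroxylate collagen and are hypoxia targets, had log2 fold changes of 1.39 (SE 0.08) and 1.25 (SE 0.09). Mmp11, a secreted matrix protease, was at 10.6, 11.6 and 10.7 CPM in 2D and 44.8, 41.5 and 44.8 CPM in 3D (a log2 fold change of 1.99 with SE 0.10, adjusted p = 3.46e-09). Mmp2, another, was at 12.8, 12.3 and 11.5 CPM in 2D and 23.1, 25.97 and 28.7 CPM in 3D (a log2 fold change of 1.09 with SE 0.15, adjusted p = 3.05e-05). Col7a1, of anchoring fibrils, was lower (−1.34, SE 0.17).

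Receptors for matrix and neighbouring cells changed in both directions. Integrin chains gave 9 higher and 3 lower of 19 (median 0.61), and Itgb8, a chain that activates latent TGF-beta, was at 32.4, 36.3 and 33.99 CPM in 2D and 136, 153 and 146 CPM in 3D (a log2 fold change of 2.08 with SE 0.10, adjusted p = 2.92e-09). Itgb7, best known on leukocytes, was at 61.2, 54.1 and 58.5 CPM in 2D and 17.9, 16.9 and 12.6 CPM in 3D (a log2 fold change of −1.87 with SE 0.13, adjusted p = 5.67e-08). Clustered protocadherins, neuronal adhesion molecules that lie side by side on chromosome 18, were higher in 37 of 42 tested members and lower in 0, with a median of 2.97, or 2.86 with genes absent in 2D at their bound. Another 15 members were not tested because of low counts, and neighbours share sequence and may share reads. Pcdhb19 stood at 1.85, 1.19 and 1.16 CPM in 2D and 20.2, 21.1 and 24.2 CPM in 3D (a log2 fold change of 3.96 with SE 0.26, adjusted p = 2.90e-08). Pcdhb9 stood at 0.148, 0.306 and 0.0462 CPM in 2D and 11.8, 10.99 and 10.2 CPM in 3D (a log2 fold change of 6.04 with SE 0.42, adjusted p = 5.18e-08). Of the 27 whose counts stood clear of the background 26 were higher.

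The actin cytoskeleton was lower in 17 of 29 members and higher in 2 (median −0.48), and without 3D replicate 1 higher in 4. Actb, the main cytoplasmic actin, stood at 5466, 5501 and 5030 CPM in 2D and 2526, 2203 and 2407 CPM in 3D (a log2 fold change of −1.16 with SE 0.11, adjusted p = 9.97e-07). Tpm1, a tropomyosin, was at 902, 852 and 784 CPM in 2D and 221, 176 and 213 CPM in 3D (a log2 fold change of −2.06 with SE 0.11, adjusted p = 6.38e-09). Acta2, the smooth muscle actin of myofibroblasts, was higher, at 10.9, 12.5 and 12.1 CPM in 2D and 45.4, 37.4 and 45.6 CPM in 3D (a log2 fold change of 1.85 with SE 0.13, adjusted p = 4.33e-08). EMT factors and cadherins gave 5 higher and 4 lower of 16 (median 0.08), a median that fell to −0.08 without 3D replicate 1. Vim, or vimentin, was at 1647, 1745 and 1542 CPM in 2D and 679, 639 and 782 CPM in 3D (a log2 fold change of −1.23 with SE 0.09, adjusted p = 1.15e-07). Krt18, a keratin of simple epithelium, was at 154, 147 and 146 CPM in 2D and 63.2, 52.9 and 59.1 CPM in 3D (a log2 fold change of −1.35 with SE 0.10, adjusted p = 1.00e-07). Its partner Krt8 was at 322, 315 and 292 CPM in 2D and 156, 134 and 150.4 CPM in 3D (a log2 fold change of −1.08 with SE 0.10, adjusted p = 1.05e-06). Both the mesenchymal filament and the epithelial ones were thus lower in every 3D library. Sox9, a factor of pancreatic ducts, was at 2.09, 2.78 and 4.17 CPM in 2D and 13.9, 26.8 and 19.9 CPM in 3D (a log2 fold change of 2.74 with SE 0.30, adjusted p = 3.50e-06), and the list of keratins and pancreatic factors gave 4 higher and 3 lower of 9 (median 0.24). Among YAP, TAZ, TEAD and their targets 7 of 23 were higher and 7 lower. Ccn2, a classical target, was at 77.5, 84.3 and 72.8 CPM in 2D and 190, 189 and 205 CPM in 3D (a log2 fold change of 1.32 with SE 0.08, adjusted p = 1.50e-08). Ankrd1, another target, was at 155, 138 and 147 CPM in 2D and 63.9, 55.1 and 62.5 CPM in 3D (a log2 fold change of −1.28 with SE 0.12, adjusted p = 7.48e-07).

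In the EGF family the receptor Egfr was higher in 3D and the ligands named here lower. Egfr, the EGF receptor, stood at 1.04, 1.01 and 1.05 CPM in 2D and 23.2, 17.8 and 23.3 CPM in 3D (a log2 fold change of 4.37 with SE 0.21, adjusted p = 1.62e-09). Its ligand Areg, or amphiregulin, was at 13.04, 11.6 and 10.9 CPM in 2D and 1.77, 1.70 and 1.19 CPM in 3D (a log2 fold change of −2.93 with SE 0.14, adjusted p = 1.49e-09). The ligand Ereg was at 53.4, 47.8 and 49.3 CPM in 2D and 13.1, 11.4 and 13.3 CPM in 3D (a log2 fold change of −1.99 with SE 0.11, adjusted p = 4.33e-09). A further ligand, Hbegf, was at 19.1, 19.3 and 18.9 CPM in 2D and 8.69, 8.63 and 8.84 CPM in 3D (a log2 fold change of −1.13 with SE 0.09, adjusted p = 1.38e-07). The receptor was higher and the 3 ligands lower in every 3D library. The list had 2 higher and 6 lower of 13 (median −0.54). With the gene absent in 2D at its bound the median was −1.13. That gene's 3D level lay under the floor, so this median is no sign of a larger fall. Pdgfra, a PDGF receptor that is also a fibroblast marker, rose from 8.31, 9.49 and 9.51 CPM to 194, 225 and 223 CPM (a log2 fold change of 4.55 with SE 0.10, adjusted p = 1.52e-11), a 23.5-fold change of the means, while Pdgfrb, its sister receptor, was higher by 0.30 (SE 0.08) on the log2 scale. TGF-beta genes gave 12 higher and 7 lower of 22 (median 0.48), and Tgfb1, the ligand, was at 4.76, 5.63 and 5.70 CPM in 2D and 12.6, 21.7 and 16.9 CPM in 3D (a log2 fold change of 1.67 with SE 0.17, adjusted p = 1.95e-06). Ltbp3, which stores the ligand in matrix, was at 42.8, 45.2 and 51.9 CPM in 2D and 144, 252 and 176 CPM in 3D (a log2 fold change of 2.03 with SE 0.20, adjusted p = 1.11e-06). Immediate early genes and ERK feedback had 10 higher and 10 lower of 26. Egr1, an immediate early factor, had a log2 fold change of 2.16 (SE 0.25), and Spry2, an inhibitor of receptor signalling, one of −1.06 (SE 0.18). The LGR and Wnt list gave 5 higher and 2 lower of 14 (median 0.05), where the Wnt inhibitors Notum and Znrf3 had log2 fold changes of −1.53 (SE 0.18) and 0.98 (SE 0.20). Of its 10 members clear of background 2 were higher.

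The genes with the largest changes, taken among those with a mean count of at least 200, were mostly absent or near absent in 2D. Islr, a secreted or membrane-anchored leucine-rich repeat protein of mesenchymal cells, had 0 counts in 2D and 29.4, 30.9 and 31.1 CPM in 3D, at least 658-fold higher. Serpina6, the corticosteroid-binding globulin, Cyp2f2, a cytochrome P450, Sectm1a and Cfap54, of cilia, were likewise at 0 in 2D, and stood in 3D at means of 10.8 ± 0.498, 8.76 ± 2.27, 8.40 ± 0.893 and 7.71 ± 0.572 CPM (SD, n = 3). These were at least 234-fold, 189-fold, 181-fold and 166-fold higher. Aox3, an aldehyde oxidase, was at 0, 0 and 0.0462 CPM in 2D and 22.7, 19.8 and 19.7 CPM in 3D. Srcin1, an inhibitor of SRC, Fbln7, a fibulin, and Grm5, a glutamate receptor, were each at under 0.13 CPM in every 2D library. The 3D libraries had 10.9, 17.6 and 11.2 CPM of Srcin1. They had 10.8, 12.2 and 12.7 CPM of Fbln7 and, in the same order, 8.09, 6.78 and 10.1 CPM of Grm5. In all, 679 tested genes had 0 counts in every 2D library, 496 of them called higher, and 107 had 0 counts in every 3D library. A gene at 0 in every library of a culture passed the count filter only through other libraries of the fit. It could be called in a single direction only, so these counts are partly fixed in advance.

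Among the largest decreases none reached 0. Mal, a membrane proteolipid of apical transport, fell from 12.7, 12.3 and 11.99 CPM to 0.884, 1.47 and 0.855 CPM (a log2 fold change of −3.53 with SE 0.21, adjusted p = 1.12e-08). Cd109, a surface protein that binds TGF-beta, fell from 41.2, 43.4 and 40.01 CPM to 3.85, 6.24 and 6.32 CPM (a log2 fold change of −2.93 with SE 0.16, adjusted p = 5.74e-09). Aqp1, a water channel, stood at 25.6, 21.5 and 28.8 CPM in 2D and 2.89, 2.90 and 2.61 CPM in 3D (a log2 fold change of −3.18 with SE 0.22, adjusted p = 5.15e-08). Dlk2, a Notch-related surface protein, was at 29.8, 32.5 and 28.8 CPM in 2D and 3.63, 3.67 and 3.08 CPM in 3D (a log2 fold change of −3.13 with SE 0.13, adjusted p = 5.41e-10). The log2 fold changes of the other genes of this group were −2.99 for Pwwp3b, −2.85 for the annexin Anxa8, −2.85 for Syt7 of vesicle fusion, −2.77 for Ddias, −2.72 for Pcolce2 of collagen processing, −2.70 for Aunip, a partner of Aurora A, and −2.65 for the glutathione transferase Gsta1. Areg, given with the EGF family, belongs to the same group.

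The same culture change in WT cells separated shared from differing responses. In WT 44.3% of genes were called, 4752 higher and 4707 lower in 3D. Of the genes higher in cells labelled Cxcl5-/-, 2904 (47.3%) were also higher in WT, against 22.2% of all genes tested. They are 61.1% of those higher in WT, against 28.7% of all genes tested. Of the lower genes 3544 (58.8%) were also lower in WT, against 22% of all genes tested. They are 75.3% of the lower WT calls, against 28.2% of all genes tested. Opposite calls were 255 genes higher in cells labelled Cxcl5-/- and lower in WT (4.15% of the higher genes). Another 360 went the other way (5.97% of the lower genes). The difference between the 2 responses, tested as an interaction, passed for 27.2% of genes, positive for 2376 (11.1%) and negative for 3431 (16.1%). Positive means that the change from 2D to 3D was more upward in cells labelled Cxcl5-/-. With library totals in place of TMM these counts were 4585 and 1359, so the balance of directions depends on scaling. The 3D WT libraries also had lower TMM factors (0.820 to 0.912) than the 3D libraries labelled Cxcl5-/- (1.01 to 1.23), and a higher sum of olfactory and vomeronasal receptor genes (115 to 172 CPM), whose part in the interaction was not tested.

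Interferon-stimulated genes had medians of 3.94 in cells labelled Cxcl5-/- and 3.37 in WT, and the interaction was positive for 9 and negative for 5 of 43. Hypoxia targets had medians of 1.46 and 2.30, with a negative interaction for 23 of 34 and a positive one for 0. Glycolysis had 0.75 and 1.48 with 16 of 23 negative, and sterol synthesis 0.03 and 1.10 with 18 of 20 negative. Mitosis had −1.95 and −0.95 with 32 of 36 negative, and cytosolic ribosomal proteins −1.04 and −0.28 with 62 of 80 negative. The ATF4 list had −0.20 and 0.95 with 19 of 22 negative, and p53 targets −0.62 and 0.34 with 13 of 19 negative and 1 positive. On the other side, clustered protocadherins had 2.97 and 0.99 with 26 of 42 positive and 0 negative. These counts shifted with the scaling. With library totals the interaction was negative for 21 hypoxia targets, 8 glycolysis genes, 16 sterol synthesis genes, 23 mitosis genes, 30 cytosolic ribosomal protein genes, 15 genes of the ATF4 list and 10 p53 targets. It was then positive for 16 interferon-stimulated genes and negative for 3, and positive for 31 protocadherins.

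**Figure D4:**
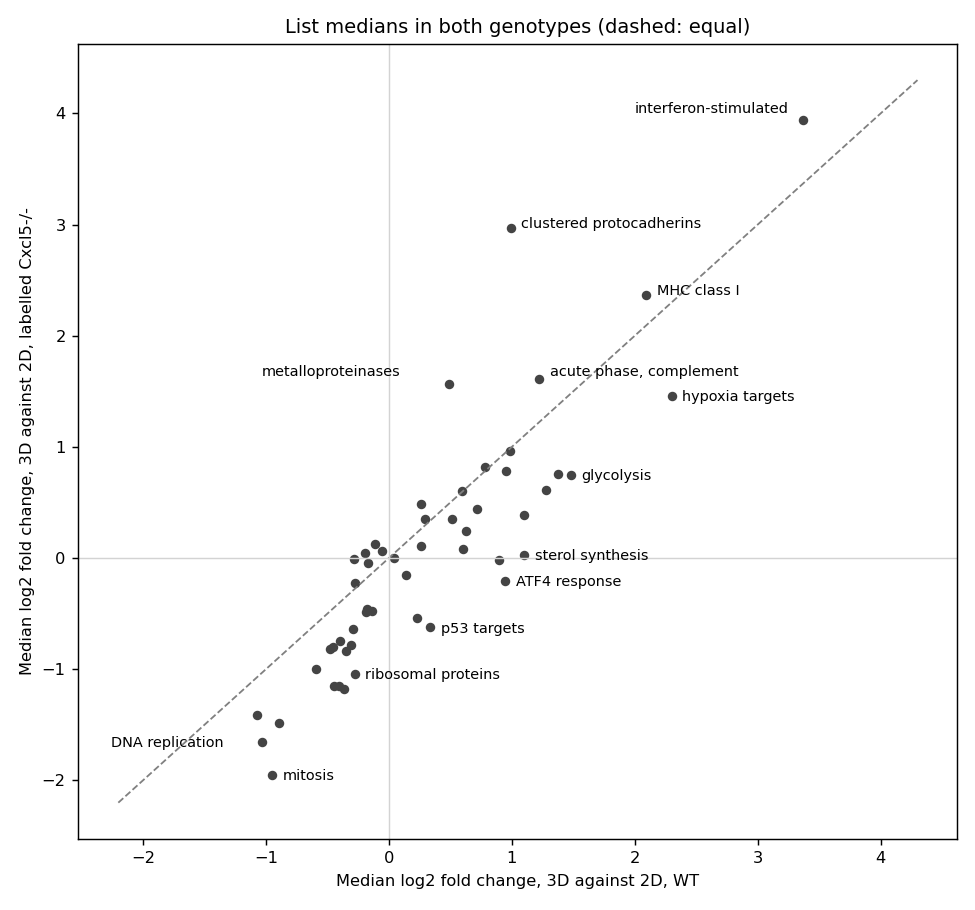
Median log2 fold change of each gene list from 2D to 3D in WT (horizontal axis) and in cells labelled Cxcl5-/- (vertical axis), 1 point per list, with a dashed line where both are equal. Protocadherins (0.99 in WT, 2.97 in cells labelled Cxcl5-/-) lie above the line, and hypoxia targets (2.30 and 1.46), sterol synthesis (1.10 and 0.03) and mitosis (−0.95 and −1.95) below it.

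Several single genes moved in opposite directions in the 2 genotypes, Hif1a and Myc among them. Hif1a fell by 0.49 on the log2 scale in cells labelled Cxcl5-/- and rose by 0.78 in WT (interaction −1.27, SE 0.14, adjusted p = 2.43e-05). For Myc the values were −0.48 and 0.93 (interaction −1.41, SE 0.16, adjusted p = 4.45e-05), and the first of these was not called with library totals. Ptgs2, the inducible cyclooxygenase, stood at 206, 179.7 and 197 CPM in 2D and 61.8, 64.1 and 56.2 CPM in 3D in cells labelled Cxcl5-/-, against 175, 169 and 181 CPM in 2D and 936, 879 and 1044 CPM in 3D in WT (interaction −4.12, SE 0.13, adjusted p = 6.41e-10). Ptgs2 was thus lower in every 3D library of one genotype and higher in every 3D library of the other. Areg (interaction −4.62, SE 0.18, adjusted p = 7.65e-09), Cd109 (interaction −4.04, SE 0.22, adjusted p = 1.02e-07) and Cdkn1a (interaction −4.29, SE 0.52, adjusted p = 6.13e-05) were opposite in the same way. Ccn2 showed the reverse, with log2 fold changes of 1.32 in cells labelled Cxcl5-/- and −1.50 in WT (interaction 2.82, SE 0.11, adjusted p = 7.65e-09). Pdgfra rose by 4.55 in cells labelled Cxcl5-/- and had a log2 fold change of −0.11 (SE 0.09) in WT (interaction 4.66, SE 0.13, adjusted p = 3.36e-10). Aurka, with −2.47 and −1.21, fell in both and further in cells labelled Cxcl5-/- (interaction −1.26, SE 0.14, adjusted p = 2.94e-05).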

How the data were processed

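RNA of Panc02 cells labelled Cxcl5-/- and WT in 2D and 3D culture was sequenced in 12 libraries, 3 per group. Libraries came from a TruSeq kit for stranded total RNA and were read as pairs on a NovaSeq. HISAT2 placed the reads on GRCm38, and the authors deposited StringTie gene counts without normalization. How StringTie output became counts is not given in the sources used here. Samples were grouped by their labels. Another deposited table of counts, of 3D cells labelled WT, KO, Hif1a or Myc, served only for the level of Cxcl5. A table of conditioned-medium samples was not used here.

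Counts of 56980 genes were fitted with edgeR 4.0.16 (R 4.3.3, limma 3.58.1): filterByExpr by group, TMM, and the quasi-likelihood test over all 4 groups, so that they share the spread, with Benjamini-Hochberg adjustment over 21367 genes and a threshold of 0.05. For the SE the log2 fold change was taken without its sign over the root of F. The interaction was the change in cells labelled Cxcl5-/- minus that in WT. Replicate numbers did not pair samples (correlations of deviations 0.08, −0.01 and −0.01). The test was tried on simulated data.

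Named genes were those the study lists for this comparison, the 12 largest changes each way (mean count at least 200, no overlap, no predicted or clone name), 4 members of each list past the threshold with a mean of at least 5 CPM, the 6 largest interactions each way and the 5 highest genes. The text uses part of them, some genes of the rule and the lists are not reported here, and it names exceptions outside the rule as list members that went against their list. The libraries, lists and rules were chosen with earlier results of these data known. A fold against a group at 0 used a floor of 3 counts per library and covers counting error only. Promoters of 26994 symbols came from RefSeq on GRCm38.p6, and 250 bases before the start were searched on both strands. Alternatives were DESeq2 1.42.0, its size factors, library totals, other filters, only the groups compared, a replicate block, summed symbols and each library left out. Tables and figures used python 3.11.15, pandas 2.3.3, numpy 2.4.6 and matplotlib 3.10.9.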

Additional observations from a re-analysis of the deposited data

Results flagged for a closer look

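The change from 2D to 3D differed between cells labelled Cxcl5-/- and WT, by a test of the difference itself, for 2376 genes that were more positive and 3431 that were more negative in cells labelled Cxcl5-/-. Values here are that difference on the log2 scale, for genes named by the rule. Among 177 named genes that passed this test, the 46 given here are those listed by the study, those with opposite calls in the 2 genotypes, or those with the largest differences. The balance of signs depends on scaling, as the counts with library totals (4585 and 1359) show, and the 3D WT libraries held more olfactory and vomeronasal receptor counts. The part of either was not tested.

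Genes listed by the study had these differences. Cxcl5 had a value of 1.37, Hif1a −1.27 and Myc −1.41. The glycolytic genes Aldoa, Pgk1 and Ldha had −0.91, −0.92 and −0.88. The sterol genes Sqle, Msmo1 and Dhcr7 had −1.04, −1.42 and −1.01. Replication genes had −0.49 for Fen1, −0.60 for Mcm7, −0.74 for Cdc6 and −0.64 for Pcna, and the mitotic genes Cdk1 and Ccnb1 had −1.09 and −1.0. Cgas had −0.77 and Traip −0.94, and Gclc had −0.43. With library totals Dhcr7, Fen1, Mcm7, Pcna, Cgas, Gclc and Cd14 lost their call, and the other 39 of the 46 kept it. Fen1 also lost it with no filter on low counts and when any of 5 single libraries was left out, and Gclc with no filter.

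The largest positive differences were 8.33 for Cfap54, 7.62 for Mfsd4a, a solute carrier relative, 7.19 for Inmt, an indolethylamine methyltransferase, 6.37 for Aox3, 6.29 for Srcin1 and 6.20 for Fbln7. Several of these genes were at or near 0 in some groups, so their sizes are no bounds. Mfsd4a stood at 36.8, 56.6 and 4.35 CPM in 3D, with replicate 3 far below the others. Cfap54 lost its call under 8 alternatives, and Fbln7 with DESeq2 and without 2D WT replicate 2. Leaving out 1 WT library also ended the call of Srcin1 (2D replicate 2), Aox3 (2D replicate 3), Inmt (2D replicate 1) and Lars2 (3D replicate 3). The largest negative ones were −4.80 for Mal, −4.62 for Areg, −4.29 for Cdkn1a, −4.12 for Ptgs2, −4.04 for Cd109 and −3.97 for Lars2, a mitochondrial tRNA synthetase whose levels spread widely (905, 879 and 326 CPM in 2D and 65.05, 189.8 and 88.98 CPM in 3D).

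Further genes called in opposite directions in the 2 genotypes were positive for Pcx (2.53), mt-Nd4 (1.93), mt-Nd5 (1.57), Steap3, a metalloreductase (2.17), Slc36a1, a lysosomal amino acid transporter (1.71), Ccn2 (2.82), Col3a1 (1.15) and Pdgfrb (1.09). They were negative for Acat2 (−1.17), Vim (−1.65), Krt18 (−2.18), Krt8 (−1.70), Spry2 (−2.01), Hbegf (−2.07), Wnt7b, a Wnt ligand (−2.01), and Cd14, a receptor subunit for bacterial lipid (−0.67). The call of Cd14 in cells labelled Cxcl5-/- (adjusted p = 0.0396) was lost under 11 alternatives.

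Outside the main comparison, the summed level of 2005 olfactory and vomeronasal receptor genes, of which 107 were tested, was 2.78 times as high in 3D as in 2D libraries labelled Cxcl5-/-.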

How the results depend on the processing

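Over the alternatives the counts for 3D against 2D in libraries labelled Cxcl5-/- were 5297 to 7039 higher and 4943 to 6083 lower apart from those that leave out a library or restrict the genes counted. They were 6697 and 5585 with DESeq2, and 7039 and 4943 with library totals, where the median log2 fold change of all genes was 0.257 in place of 0.109. Protein-coding genes alone gave 4074 higher, and a log2 change of over 1 was reached by 3995 and 2087. Leaving out 1 library gave 5336 to 5907 higher and 5412 to 6235 lower. The interaction counts moved more: with library totals they were 4585 positive and 1359 negative, with no filter on low counts 2322 and 2115, and without 1 library 1675 to 2487 and 2363 to 4506. The interaction of Dkc1 turned from −0.36 to 0.008681 with library totals (adjusted p = 0.995). The causes were not tested, except that fewer genes were tested among protein-coding ones. With the replicate number as a block 6042 genes were higher and 6083 lower, and 1 of 3 numbered pairs correlated best with its own number, so the block is no evidence of pairing. Of the named genes, Myc and Pgd lost their call with library totals, Cd14 under 11 alternatives (DESeq2, its size factors, library totals, both other filters, only the groups compared, and without 2D replicate 1, 2 or 3 or 3D replicate 2 or 3), Lars2 without 3D replicate 1 or 3, and mt-Nd5 without 3D replicate 3. With library totals the lower members moved by over 1.5 times in the lists of collagen hydroxylases and lysyl oxidases (4 to 1), unfolded protein response (5 to 3), NF-kB (4 to 2), MYC network (4 to 2), immediate early genes (10 to 6), glycogen (2 to 1) and MHC class I (1 to 0), as did the higher members in the YAP list (7 to 11). No named gene that passed the test in the main fit changed direction between 3D and 2D in the alternatives run. A change of sign in genes that did not pass was not counted. Depth limits genes under 1 CPM.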

Other observations

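Classes of transcripts that do not code for protein differed in their share of calls. Of 1334 unverified transcripts (TEC in the annotation) 636 were higher and 37 lower, with a median log2 fold change of 1.02. Of 1203 antisense transcripts 349 were higher (29%) and 57 lower (4.74%), and of 798 lincRNAs 258 were higher (32.3%) and 55 lower (6.89%), against 28.7% higher and 28.2% lower among all genes tested. In WT the medians were 0.12, 0.14 and 0.52. Processed pseudogenes, 2196 in all, gave 276 higher and 725 lower. Malat1, a nuclear lncRNA, stood at 3040, 3005 and 3472 CPM in 2D and 15260, 18700 and 17740 CPM in 3D (a log2 fold change of 2.44 with SE 0.12, adjusted p = 2.81e-09). The 7SK RNA gene Rn7sk was at 18520, 18190 and 17140 CPM in 2D and 41630, 15340 and 17600 CPM in 3D and did not pass the test (adjusted p = 0.152), with 3D replicate 1 far above the other libraries, though it passed with library totals and without 3D replicate 2.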
